A study of Homo sapiens with 24 samples.

Results

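The genes described here are the enzymes, sensors and transcription factors that make cholesterol and fatty acids under the control of the SREBP (sterol regulatory element-binding protein) transcription factors. They were chosen by name, as a list of 30 genes, and each was read from the transcript cluster (the unit an array value is given for) that carried its symbol alone. For 28 of the 30 such a cluster was found, out of 18417 genes tested in all. FDFT1, squalene synthase, was not analysed here, and the cluster of HSD17B7, a sterol reductase, is shared with its pseudogene HSD17B7P2, so it has no value of its own. CYP51A1 had 2 clusters, and the one with the higher mean over all arrays stands for the gene.

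The values come from 24 Affymetrix gene arrays of total RNA from 4 established human non-small cell lung cancer (NSCLC) lines, all with mutant K-ras, and they ask what depletion of the kinase PKCδ does to gene expression. Each line stably carried a lentiviral shRNA, either δ193 against PKCδ (the knock-down) or the scrambled control δscr, with 3 biological replicates per group and puromycin kept on all cells. The survival of H2009 and H441 cells depends on K-ras, that of A549 and H460 cells does not, and the study splits the lines on this. A single PKCδ shRNA was profiled, so an effect of PKCδ loss and an effect of that hairpin on other transcripts cannot be told apart. Whether replicates came from separate transductions is not given in the sources used here, so p-values measure the spread between these arrays, which may be technical in part.

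SREBP1 and SREBP2, the products of SREBF1 and SREBF2, are held in the endoplasmic reticulum by SCAP and the INSIG proteins when sterols are plentiful. When sterols fall, SCAP carries them to the Golgi, where they are cleaved, and the released part enters the nucleus and switches on the genes of both pathways. SREBP2 acts mainly on the cholesterol genes and SREBP1 mainly on the fatty acid genes, and INSIG1 is itself a target, so that the system feeds back on itself. Acetyl-CoA feeds both routes. The mevalonate arm turns it into isoprenoids, which also anchor Ras-family proteins to membranes, and the sterol arm carries on to cholesterol, while the fatty acid arm builds, elongates and desaturates fatty acids for membranes and storage.

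SREBPs bind sterol regulatory elements, usually beside a site for the factor NF-Y. Shown are the promoters of INSIG1, SCD and SC5D, the members that changed significantly in a line and whose windows match a core of these elements, of SREBF2, which codes for SREBP2 and matches it too, and of FDPS, which changed in a line and has no match. Promoter sequences (250 bases before to 50 after the annotated start) were taken from RefSeq on build GRCh38.p14. They were found for 25 of the 28 genes. SQLE, FASN and ACAT2, which each changed in a line, had none here and were not searched for matches. Capitals mark every match, on either strand, to the SRE-type core CACNCCAC and to the NF-Y box, spelled CCAAT, so that a match on the minus strand reads as the reverse complement. The 2 motifs can share at most 1 base, and no matches printed here overlap. The windows are chr7:155297628-155297927 for INSIG1, chr10:100346983-100347282 for SCD, chr11:121292521-121292820 for SC5D (the first of its 2 annotated starts), chr22:41832855-41833154 for SREBF2 and chr1:155308616-155308915 for FDPS, all on the plus strand.
INSIG1: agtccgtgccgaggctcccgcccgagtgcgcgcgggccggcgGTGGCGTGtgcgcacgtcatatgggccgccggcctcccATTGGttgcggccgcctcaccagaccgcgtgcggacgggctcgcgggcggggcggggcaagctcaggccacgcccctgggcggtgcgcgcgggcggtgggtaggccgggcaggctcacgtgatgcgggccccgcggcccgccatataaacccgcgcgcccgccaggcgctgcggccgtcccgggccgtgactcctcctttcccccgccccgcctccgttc
SCD: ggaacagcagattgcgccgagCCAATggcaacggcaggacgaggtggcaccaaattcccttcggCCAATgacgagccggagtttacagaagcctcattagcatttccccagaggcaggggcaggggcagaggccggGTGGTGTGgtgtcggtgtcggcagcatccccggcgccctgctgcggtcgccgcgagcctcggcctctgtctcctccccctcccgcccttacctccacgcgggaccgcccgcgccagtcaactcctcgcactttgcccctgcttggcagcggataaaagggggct
SC5D: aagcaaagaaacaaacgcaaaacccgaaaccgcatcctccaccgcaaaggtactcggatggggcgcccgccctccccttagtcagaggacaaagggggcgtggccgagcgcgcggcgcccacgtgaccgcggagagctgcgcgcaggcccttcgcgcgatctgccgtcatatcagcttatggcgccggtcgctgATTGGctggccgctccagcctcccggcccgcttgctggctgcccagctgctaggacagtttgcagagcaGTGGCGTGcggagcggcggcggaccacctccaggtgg
SREBF2: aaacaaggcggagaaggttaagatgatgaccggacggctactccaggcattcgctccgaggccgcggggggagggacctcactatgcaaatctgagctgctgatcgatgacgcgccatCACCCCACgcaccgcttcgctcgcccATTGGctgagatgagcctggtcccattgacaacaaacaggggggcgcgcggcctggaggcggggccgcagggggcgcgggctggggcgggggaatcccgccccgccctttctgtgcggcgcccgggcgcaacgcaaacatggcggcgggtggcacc
FDPS: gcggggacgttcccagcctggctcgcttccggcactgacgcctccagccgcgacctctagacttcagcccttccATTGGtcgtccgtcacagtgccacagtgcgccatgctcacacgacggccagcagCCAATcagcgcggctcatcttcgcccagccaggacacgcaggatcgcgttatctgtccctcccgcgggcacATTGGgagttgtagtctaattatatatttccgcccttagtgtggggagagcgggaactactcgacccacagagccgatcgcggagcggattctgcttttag

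The SRE-type core began at position -208 of the INSIG1 promoter, -114 of SCD, 14 of SC5D and -132 of SREBF2, counted from the start site, and the FDPS window held 3 NF-Y boxes and no core match. The core was present for 6 of the 25 members (ACACA, IDI1, INSIG1, SC5D, SCD and SREBF2), against 5.87% of all 35116 promoter windows and 7.05% of all 27305 genes. All 6 also held an NF-Y box, a combination found in 2.25% of genes. The NF-Y box itself was present for 18 of the 25 members, against 39.72% of all genes and 34.61% of all windows. These matches describe letters in a window and are not binding sites measured in these cells.

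PRKCD, the gene for PKCδ, fell in all 4 lines. Its log2 values were 5.96, 5.95 and 5.86 in H2009 δ193 cells, against 8.20, 8.21 and 8.11 in δscr cells (log2 fold change -2.25, SE 0.20, adjusted p = 1.7e-07). They were 5.69, 4.68 and 6.01 in H441 δ193 cells, against 8.11, 7.71 and 7.76 in δscr cells (log2 fold change -2.40, SE 0.20, adjusted p = 2.29e-08). The groups did not overlap in either K-ras dependent line, and δ193 replicate 2 of H441 was the lowest of all. They were 5.61, 5.82 and 5.71 in A549 δ193 cells, against 6.70, 7.03 and 7.19 in δscr cells (log2 fold change -1.26, SE 0.20, adjusted p = 0.000325), and 6.42, 6.28 and 6.16 in H460 δ193 cells, against 8.27, 8.34 and 8.35 in δscr cells (log2 fold change -2.03, SE 0.20, adjusted p = 3.8e-07). A549 started from the lowest δscr level, and the groups of A549 and H460 did not overlap either. The difference in A549 was the smallest of the 4, and PRKCD itself differed in its response between lines (moderated F over the 4 lines, adjusted p = 0.0261).

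Over all genes, array medians lay between 5.69 and 5.80 and arrays of a group correlated at 0.9819 to 0.9977, the lowest in H441 δ193 cells. The median residual variance was 2.55 times that of the other lines in H441 and 0.62 times in H460, and over the 28 members 7.12 times and 0.20 times. The epithelial keratins KRT8 and KRT18 averaged 11.24 to 12.55 in every group, while EPCAM averaged 11.20 in H2009 δscr cells and 4.71 in A549 δscr cells. PTPRC, the pan-leukocyte marker, averaged 2.66 to 2.80 over the 8 groups. In H441, where most of the calls below were made, 2 of 5 epithelial markers were called lower (KRT19 -0.55, adjusted p = 0.00182; CDH1 -1.20, adjusted p = 0.0012) and their mean level was 8.41 to 8.62 on the δ193 arrays, against 8.94 to 9.13 on the δscr arrays. KRT19 was called higher in H460 (+1.20, adjusted p = 2.15e-07), and CD14 was called lower in A549 (-0.75, adjusted p = 0.00784) and higher in H460 (+0.57, adjusted p = 0.0446). PECAM1, an endothelial marker, was called lower in H441 (-0.51, adjusted p = 0.000721). None of the 3 hepatic markers was called in any line. The part of these in the results below was not tested, and in bulk RNA a change in the mix of cells and a change per cell cannot be told apart.

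A minority of the lipid synthesis genes passed the test after PKCδ depletion, with INSIG1 higher in both K-ras dependent lines, SCD lower in A549 and FDPS lower in H460. A gene was called at a Benjamini-Hochberg adjusted p under 0.05 over all genes and a log2 fold change of at least 0.32 in size, in a limma fit of all 24 arrays. In H2009, 3 of 28 members were called higher and 0 lower, against 2.66% and 2.25% of all genes. In H441, 5 were called higher and 2 lower, against 7.09% and 7.22%. In A549, 0 were called higher and 1 lower, against 2.05% and 2.58%, and in H460 0 higher and 1 lower, against 2.01% and 3.44%. Those counts involve 11 genes, of which INSIG1 was called in 2 lines and the others in 1, while 22.5% of all genes were called in at least 1 line and 5.42% in at least 2. At an unadjusted p under 0.05 in the same limma fit, with no fold minimum, 4 members were higher and 1 lower in H2009, against 8.98% and 7.41% of all genes. By that measure 8 were higher and 5 lower in H441, against 15% and 14.1%, while A549 had 0 higher and 9 lower, against 7.68% and 7.65%, and H460 had 1 higher and 8 lower, against 7.38% and 9.21%. The methods' own test within each line, at an unadjusted p under 0.05 and the same fold, gave 4 higher and 0 lower in H2009, against 4.03% and 3.2% of all genes, and 2 higher and 1 lower in H441, against 4.52% and 5.25%. It gave 0 higher and 4 lower in A549, against 2.85% and 3.35%, and likewise 0 and 4 in H460, against 3.65% and 5.07%. In the limma fit the other 17 members were called in no line. Their differences ranged from -0.50 (FADS2 in A549, adjusted p = 0.113) to +0.36 (HMGCS1 in H441, adjusted p = 0.0784), and the smallest adjusted p among them was 0.0514, for CYP51A1 in H460.

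**Figure D1:**
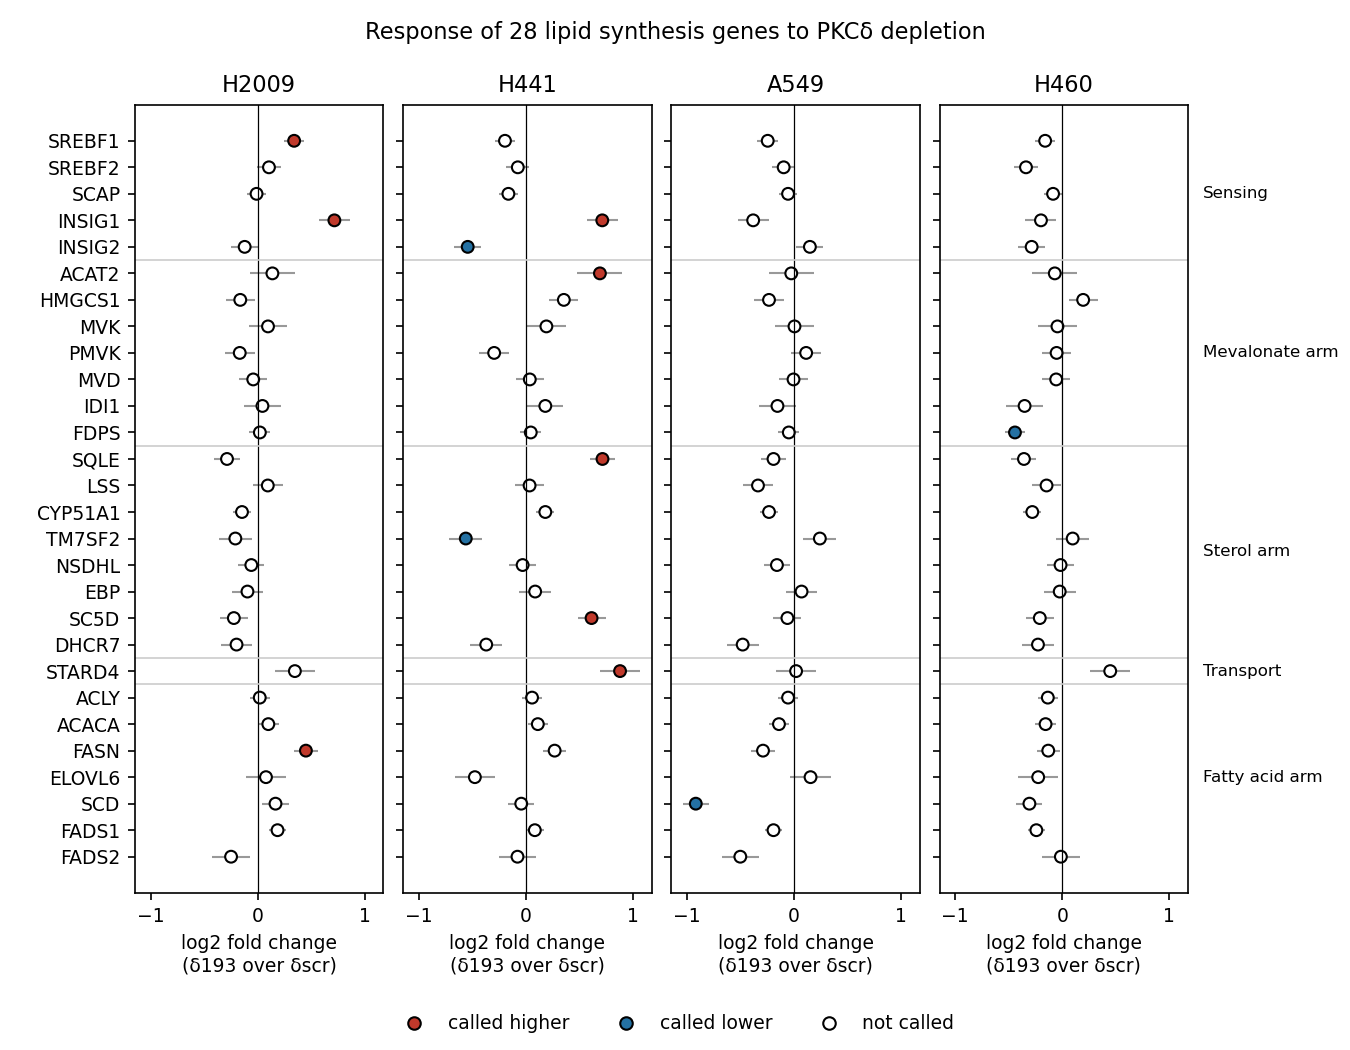
Log2 fold change of δ193 over δscr cells for each of the 28 members in each line (x axis, log2), with genes down the page grouped by role. Points are the fitted differences and bars 1 SE of the shared fit; red and blue points passed the test. INSIG1 is red in H2009 and H441 and lies left of 0 in A549 and H460, and 25 of the 28 points lie left of 0 in H460.

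INSIG1, the sterol-sensing anchor of SCAP, rose in both K-ras dependent lines. Its log2 values were 8.41, 8.22 and 8.34 in H2009 δ193 cells, against 7.62, 7.70 and 7.48 in δscr cells (log2 fold change +0.72, SE 0.15, adjusted p = 0.00344). They were 8.32, 7.65 and 8.48 in H441 δ193 cells, against 7.61, 7.42 and 7.27 in δscr cells (log2 fold change +0.71, SE 0.15, adjusted p = 0.00126). The groups did not overlap in either line, although δ193 replicate 2 of H441 lay just above the highest δscr array. In the K-ras independent lines the values were 6.68, 6.56 and 6.46 in A549 δ193 cells, against 7.10, 6.86 and 6.89 in δscr cells (log2 fold change -0.38, SE 0.15, adjusted p = 0.158). They were 7.29, 7.38 and 7.20 in H460 δ193 cells, against 7.62, 7.40 and 7.44 in δscr cells (log2 fold change -0.20, SE 0.15, adjusted p = 0.558). There the δ193 arrays lay below the δscr arrays in both lines, and neither difference passed the test. With 1 variance weight per line the A549 difference passed (adjusted p = 0.039) and the H460 difference did not (0.136). With A549 fitted alone its difference did not pass (adjusted p = 0.0627). The H441 call was lost when H441 was fitted alone (adjusted p = 0.107) and kept with 1 variance weight per line (adjusted p = 0.0232). By the methods' own test within H441 it was lost too, with or without adjustment.

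INSIG2, its paralog, which is not driven by sterol loss in the same way, went the other way in H441. Its values were 6.23, 6.40 and 5.90 in H441 δ193 cells, against 6.89, 6.64 and 6.64 in δscr cells (log2 fold change -0.54, SE 0.13, adjusted p = 0.00378), with no overlap between groups. The call was lost with H441 fitted alone (adjusted p = 0.112) and with line weights (adjusted p = 0.112). In H2009, A549 and H460 its differences were -0.12, +0.15 and -0.29, none past the test. SCAP, the escort, was called in no line, with differences of -0.01 (H2009), -0.16 (H441), -0.06 (A549) and -0.09 (H460).

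SREBF1 rose slightly in H2009. Its values there were 7.36, 7.37 and 7.27 in H2009 δ193 cells, against 7.001, 6.97 and 7.01 in δscr cells (log2 fold change +0.34, SE 0.10, adjusted p = 0.0382), and the groups did not overlap. The call was lost without any 1 of the 6 H2009 arrays, when array medians were set equal (log2 fold change +0.30, adjusted p = 0.0707) and when quantile normalization was repeated (adjusted p = 0.0578). In H441 the values were 8.54, 8.49 and 8.28 in H441 δ193 cells, against 8.81, 8.59 and 8.50 in δscr cells (log2 fold change -0.20, SE 0.10, adjusted p = 0.18). They were 6.95, 6.64 and 6.76 in A549 δ193 cells, against 7.09, 6.87 and 7.12 in δscr cells (log2 fold change -0.25, SE 0.10, adjusted p = 0.177), and 7.68, 7.61 and 7.66 in H460 δ193 cells, against 7.88, 7.79 and 7.77 in δscr cells (log2 fold change -0.16, SE 0.10, adjusted p = 0.444). In H460 the δ193 arrays lay below every δscr array, whereas in H441 and A549 the groups overlapped.

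SREBF2 was called in no line. Its values were 7.49, 7.30 and 7.24 in H2009 δ193 cells, against 7.31, 7.36 and 7.04 in δscr cells (log2 fold change +0.11, SE 0.11, adjusted p = 0.725), and 7.75, 7.66 and 7.39 in H441 δ193 cells, against 7.66, 7.85 and 7.52 in δscr cells (log2 fold change -0.08, SE 0.11, adjusted p = 0.712). In both lines the groups overlapped widely. They were 6.77, 6.80 and 6.95 in A549 δ193 cells, against 7.08, 6.91 and 6.83 in δscr cells (log2 fold change -0.10, SE 0.11, adjusted p = 0.811), and 6.90, 6.87 and 6.84 in H460 δ193 cells, against 7.20, 7.18 and 7.24 in δscr cells (log2 fold change -0.34, SE 0.11, adjusted p = 0.0713). Only in H460 were the 2 groups apart, and with H460 fitted alone the difference passed the test (adjusted p = 0.00572).

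**Figure D2:**
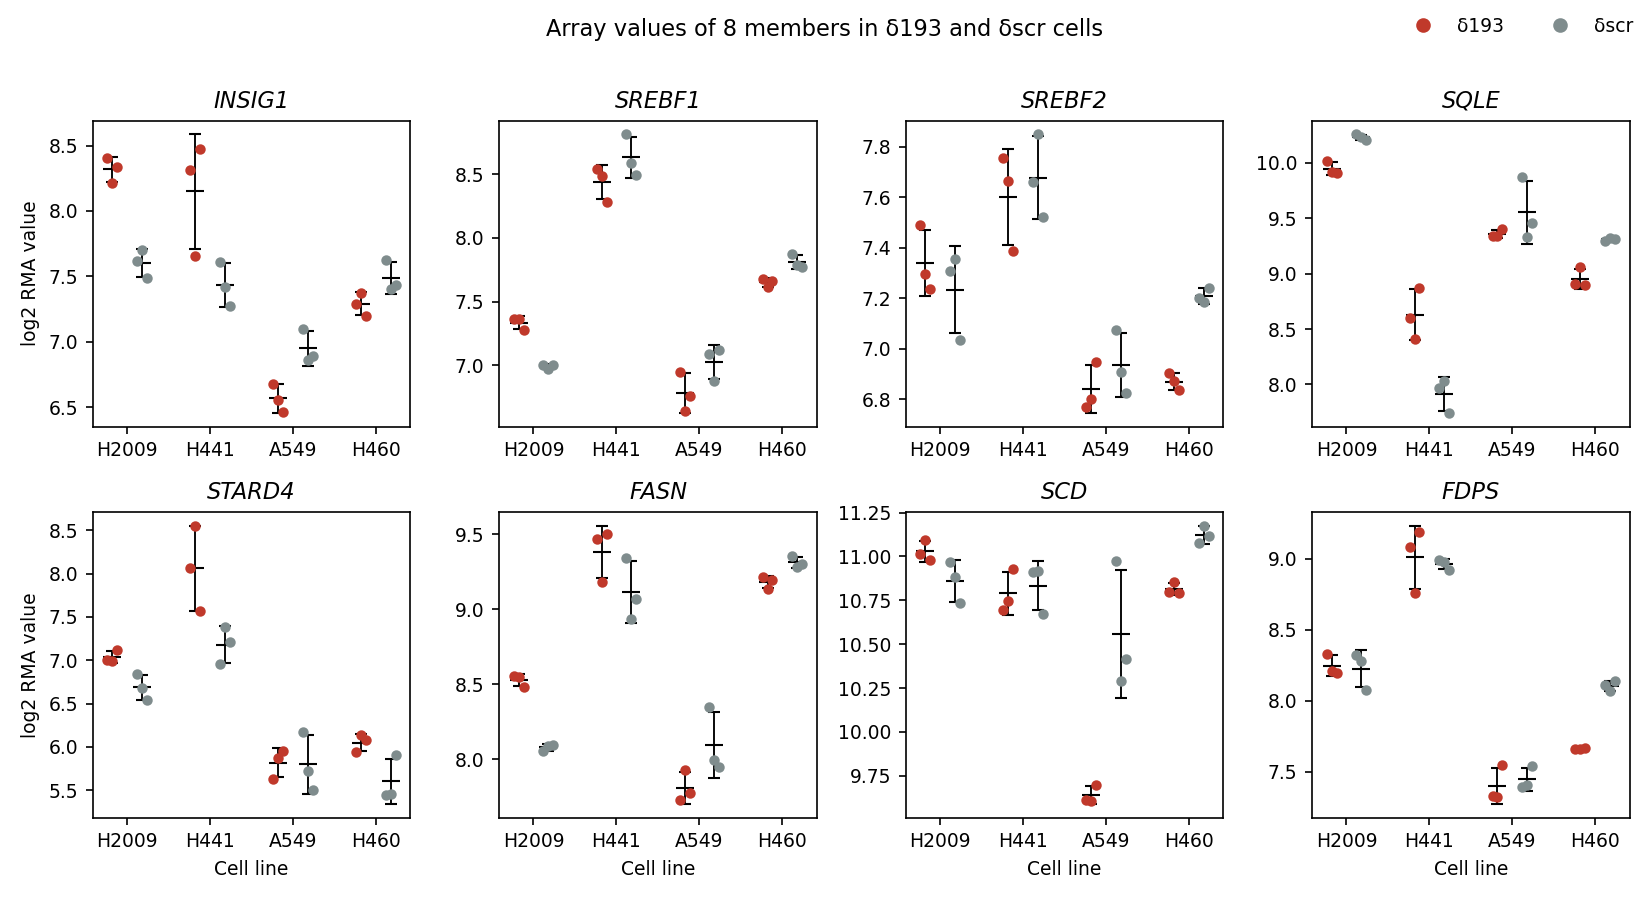
Log2 values (y axis, RMA scale) of 8 members on each array, by cell line (x axis), with δ193 arrays in red left of the δscr arrays in grey; bars are the group mean and 1 SD (n = 3). The y axes do not start at 0 and differ between genes. SCD in A549 δ193 cells and FDPS in H460 δ193 cells stand apart from their δscr arrays with little spread, while the H441 δ193 arrays of INSIG1 and STARD4 are widely spread.

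In the mevalonate arm 2 of 7 members were called, each in a single line, against 22.5% of all genes called in at least 1 line. FDPS, farnesyl diphosphate synthase, which makes the isoprenoid shared by the sterol route and protein farnesylation, fell in H460. Its values were 7.66, 7.66 and 7.67 in H460 δ193 cells, against 8.11, 8.07 and 8.14 in δscr cells (log2 fold change -0.44, SE 0.10, adjusted p = 0.006), a fall to 73.6% of the δscr level. The 3 δ193 arrays were nearly equal, and the call was lost at a fold of at least 1.5 and kept in every other alternative that could give a value. FDPS values were 8.33, 8.21 and 8.20 in H2009 δ193 cells, against 8.33, 8.28 and 8.08 in δscr cells (log2 fold change +0.02, SE 0.10, adjusted p = 0.96). They were 9.09, 8.76 and 9.19 in H441 δ193 cells, against 8.99, 8.98 and 8.93 in δscr cells (log2 fold change +0.05, SE 0.10, adjusted p = 0.81), and 7.33, 7.33 and 7.55 in A549 δ193 cells, against 7.39, 7.41 and 7.54 in δscr cells (log2 fold change -0.05, SE 0.10, adjusted p = 0.923). The groups overlapped in those 3 lines.

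ACAT2, which joins acetyl-CoA units at the head of the route, was called higher in H441, where its values were 7.33, 6.30 and 7.82 in H441 δ193 cells, against 6.50, 6.55 and 6.32 in δscr cells (log2 fold change +0.69, SE 0.21, adjusted p = 0.0247). The groups overlapped, since δ193 replicate 2 lay below all δscr arrays, and the call was lost with H441 fitted alone (adjusted p = 0.306) and with line weights (adjusted p = 0.102). It was also lost without δ193 replicate 1 (adjusted p = 0.0899) or 3 (0.174) or δscr replicate 1 (0.0515) or 3 (0.0817). HMGCS1, HMG-CoA synthase, was not called, though its arrays did not overlap in 3 lines. It differed by +0.36, adjusted p = 0.0784 in H441 and +0.20, adjusted p = 0.534 in H460, with δ193 higher, and by -0.23, adjusted p = 0.475 in A549, with δ193 lower. MVK, PMVK and MVD, which phosphorylate and decarboxylate mevalonate, ranged from -0.30 (PMVK in H441) to +0.19 (MVK in H441). IDI1, isopentenyl diphosphate isomerase, differed by -0.35, adjusted p = 0.298 in H460, where it passed with the line fitted alone (adjusted p = 0.017).

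In the sterol arm 3 of 8 members were called, all in H441. Of all genes, 22.5% were called in at least 1 line and 14.3% in H441. SQLE, squalene epoxidase, a rate-limiting oxygen-dependent step, rose there. Its values were 8.60, 8.41 and 8.87 in H441 δ193 cells, against 7.97, 8.03 and 7.74 in δscr cells (log2 fold change +0.72, SE 0.12, adjusted p = 0.000147). All 3 δ193 arrays lay above all δscr arrays, and this was the single member call in H441 that held with the line fitted alone (adjusted p = 0.0443) and also with line weights (adjusted p = 0.011). In the other lines SQLE values were 10.02, 9.92 and 9.91 in H2009 δ193 cells, against 10.26, 10.23 and 10.21 in δscr cells (log2 fold change -0.29, SE 0.12, adjusted p = 0.201). They were 9.34, 9.34 and 9.41 in A549 δ193 cells, against 9.87, 9.33 and 9.45 in δscr cells (log2 fold change -0.19, SE 0.12, adjusted p = 0.511), and 8.91, 9.06 and 8.90 in H460 δ193 cells, against 9.30, 9.32 and 9.32 in δscr cells (log2 fold change -0.36, SE 0.12, adjusted p = 0.0798). The δ193 arrays lay below all δscr arrays in H2009 and H460, and the H460 difference passed with that line fitted alone (adjusted p = 0.00828).

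SC5D, lathosterol oxidase, whose product is the substrate of DHCR7, also rose in H441, with values of 6.32, 6.26 and 6.81 in H441 δ193 cells, against 5.77, 6.16 and 5.62 in δscr cells (log2 fold change +0.61, SE 0.13, adjusted p = 0.00199). The groups did not overlap, and the call was kept with line weights (adjusted p = 0.0298) but not with the line alone (adjusted p = 0.133). TM7SF2, a sterol C14 reductase, fell in H441, with values of 5.60, 5.75 and 5.05 in H441 δ193 cells, against 6.28, 5.96 and 5.85 in δscr cells (log2 fold change -0.56, SE 0.15, adjusted p = 0.0127). There too the groups did not overlap, but δ193 replicate 3 stood well below the other 2, and the call was lost without it (adjusted p = 0.0875), without δscr replicate 1 (adjusted p = 0.0834), with the line alone (adjusted p = 0.181) and with line weights (adjusted p = 0.161). DHCR7, the reductase that completes a branch of the route, had negative differences in all 4 lines, -0.20 for H2009, -0.37 for H441 (adjusted p = 0.0925), -0.48 for A549 (adjusted p = 0.0643) and -0.23 for H460. The A549 difference of DHCR7 passed with line weights (adjusted p = 0.00926) and not with the line alone (0.07). CYP51A1, lanosterol demethylase, differed by -0.15, +0.18, -0.23 and -0.28 in H2009, H441, A549 and H460. Its second cluster gave +0.44 in H441 (adjusted p = 0.0124), where the main cluster gave +0.18, adjusted p = 0.154, so the 2 clusters disagreed on the call. LSS, NSDHL and EBP ranged from -0.34 (LSS in A549) to +0.10 (LSS in H2009).

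STARD4, a soluble carrier that moves cholesterol between membranes, had the largest rise of any member. In H441 its values were 8.06, 8.55 and 7.57 in H441 δ193 cells, against 6.95, 7.38 and 7.21 in δscr cells (log2 fold change +0.88, SE 0.19, adjusted p = 0.00205), a 1.84-fold difference. The δ193 arrays were widely spread (SD 0.49, n = 3) but stayed above the δscr arrays. The call was lost with the line alone (adjusted p = 0.0748) and with line weights (adjusted p = 0.0568), and without δ193 replicate 3 the difference was +1.13. In H2009 its values were 6.997, 6.99 and 7.12 in H2009 δ193 cells, against 6.84, 6.68 and 6.54 in δscr cells (log2 fold change +0.35, SE 0.19, adjusted p = 0.383). They were 5.94, 6.14 and 6.08 in H460 δ193 cells, against 5.45, 5.46 and 5.90 in δscr cells (log2 fold change +0.45, SE 0.19, adjusted p = 0.211), and 5.63, 5.88 and 5.95 in A549 δ193 cells, against 6.17, 5.72 and 5.51 in δscr cells (log2 fold change +0.02, SE 0.19, adjusted p = 0.987). The groups did not overlap in H2009 and H460, both with δ193 higher, and overlapped in A549, and the H460 difference passed with that line fitted alone (adjusted p = 0.0485). Averaged over the 4 lines, STARD4 was the single member called (log2 fold change +0.42, SE 0.09, adjusted p = 0.00284), with 1 of 28 higher against 1.49% of all genes and 0 lower against 2.14% (limma). At an unadjusted p under 0.05, 2 members were higher and 6 lower on average, against 13.9% and 12.8% of all genes. The averages of SCD (-0.28, adjusted p = 0.00273) and DHCR7 (-0.32, adjusted p = 0.00405) passed on the adjusted p and fell short of the fold minimum, that of DHCR7 narrowly.

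In the fatty acid arm 2 of 7 members were called, FASN higher in H2009 and SCD lower in A549. Of all genes, 22.5% were called in at least 1 line. SCD, stearoyl-CoA desaturase, which makes oleate, showed the largest fall of any member. Its values were 9.61, 9.61 and 9.70 in A549 δ193 cells, against 10.97, 10.29 and 10.41 in δscr cells (log2 fold change -0.92, SE 0.12, adjusted p = 3.43e-05), a fall to 52.9% of the δscr level. The groups were far apart, and δscr replicate 1 was the highest array. Without that array the log2 fold change was -0.71 (adjusted p = 8.15e-05). SCD values were 11.01, 11.09 and 10.98 in H2009 δ193 cells, against 10.97, 10.88 and 10.73 in δscr cells (log2 fold change +0.17, SE 0.12, adjusted p = 0.572), and 10.70, 10.75 and 10.93 in H441 δ193 cells, against 10.91, 10.92 and 10.67 in δscr cells (log2 fold change -0.04, SE 0.12, adjusted p = 0.865). In H2009 the δ193 arrays lay just above the δscr arrays, and in H441 the groups overlapped. They were 10.80, 10.86 and 10.79 in H460 δ193 cells, against 11.08, 11.18 and 11.12 in δscr cells (log2 fold change -0.31, SE 0.12, adjusted p = 0.175), with all δ193 arrays below all δscr arrays.

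FASN, fatty acid synthase, rose in H2009. Its values were 8.56, 8.55 and 8.48 in H2009 δ193 cells, against 8.05, 8.09 and 8.10 in δscr cells (log2 fold change +0.45, SE 0.11, adjusted p = 0.0139), a 1.37-fold difference with no overlap. The call was lost without δscr replicate 1 (adjusted p = 0.0578), δ193 replicate 1 (0.052) or δ193 replicate 2 (0.0552) of H2009, at log2 fold changes of +0.44. FASN values were 9.47, 9.19 and 9.50 in H441 δ193 cells, against 9.35, 8.94 and 9.07 in δscr cells (log2 fold change +0.27, SE 0.11, adjusted p = 0.0971). They were 7.72, 7.93 and 7.77 in A549 δ193 cells, against 8.35, 7.99 and 7.95 in δscr cells (log2 fold change -0.29, SE 0.11, adjusted p = 0.153), and 9.22, 9.14 and 9.19 in H460 δ193 cells, against 9.35, 9.28 and 9.31 in δscr cells (log2 fold change -0.13, SE 0.11, adjusted p = 0.626). In A549 and H460 the δ193 arrays lay below all δscr arrays, and in H441 the groups overlapped. ACLY and ACACA, which supply acetyl-CoA and malonyl-CoA to FASN, ranged from -0.16 (ACACA in H460) to +0.11 (ACACA in H441). The desaturase FADS2 differed by -0.50, adjusted p = 0.113 in A549, where its groups did not overlap, and FADS1 by -0.24, adjusted p = 0.0957 in H460. The A549 difference of FADS2 passed with line weights (adjusted p = 0.0224) and not with the line alone (0.0512). The elongase ELOVL6 differed by -0.48, adjusted p = 0.0904 in H441. Its 3 δ193 arrays there were 7.69, 7.34 and 8.68, against 8.49, 8.43 and 8.22 in δscr cells, so that replicate 3 lay on the other side of the δscr arrays from the other 2.

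Small differences of 1 sign ran through the members in the K-ras independent lines, below the threshold for most. In H460, 25 of 28 members had a negative difference, against 46.7% of all genes, and the median was -0.15 for the members and +0.01 for all genes. In 15 of the 28, the highest δ193 array lay below the lowest δscr array, against 18.1% of all genes. With H460 fitted alone, 4 members were called lower (FDPS, SQLE, IDI1 and SREBF2) and 1 higher (STARD4), against 5.02% and 3.57% of all genes. With quantile normalization repeated over the tested genes the count was 22 of 28 and the median -0.11. In A549, 21 of 28 were negative, against 48.3% of all genes, with a median of -0.12 against +0.01, and 7 did not overlap with δ193 lower, against 11.7%. The A549 δscr replicate 1 array was the highest of its group for 22 of the 28 members, against 34.7% of all genes, and without it the median was -0.04 and 19 of 28 were negative. In H2009 the medians were +0.02 for the members and +0.01 for all genes, and both became -0.02 with array medians set equal. In H2009 the signs differed between the sterol and fatty acid arms, though FASN was the only call in either arm. Of all genes, 9961 of 18417 were positive in H2009. In its sterol arm 1 of 8 members was positive, with a median of -0.17, against -0.18 in A549 and -0.18 in H460. In its fatty acid arm 6 of 7 were positive, with a median of +0.10. Among those 6, ACLY was at +0.02 and turned negative under 1 alternative. The 28 members share regulators and arrays, so the counts describe the list and were given no test.

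The H441 δ193 arrays disagreed among themselves more for the lipid synthesis genes than for genes at large. The median SD of the members over those 3 arrays was 0.32, against 0.19 for all genes, whereas in H460 it was 0.06 and 0.08 in δ193 cells. Replicate 3 was the highest of the 3 for 21 of 28 members, against 37.7% of all genes, and replicate 2 the lowest for 20, against 37.9%. In all, 17 of 28 members had a positive difference in H441 with the full data and 11 a negative one, against 49.8% of all genes negative. Without replicate 3, 12 were positive and 16 negative, against 50.4% of all genes negative. The median of the members was then -0.06 in place of +0.05. Without that array the members called were SQLE (+0.59), SC5D (+0.44), INSIG1 (+0.55) and STARD4 (+1.13) higher and DHCR7 (-0.62, adjusted p = 4.37e-04), INSIG2 (-0.41) and ELOVL6 (-0.86, adjusted p = 5.41e-06) lower. ACAT2 and TM7SF2 were no longer called. With H441 fitted alone, SQLE was the single member called, on the higher side, where 0.706% of all genes were called higher and 1.47% lower. With line weights SQLE, SC5D and INSIG1 were called, all higher, where 2.32% of all genes were called higher and 2.88% lower.

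**Figure D3:**
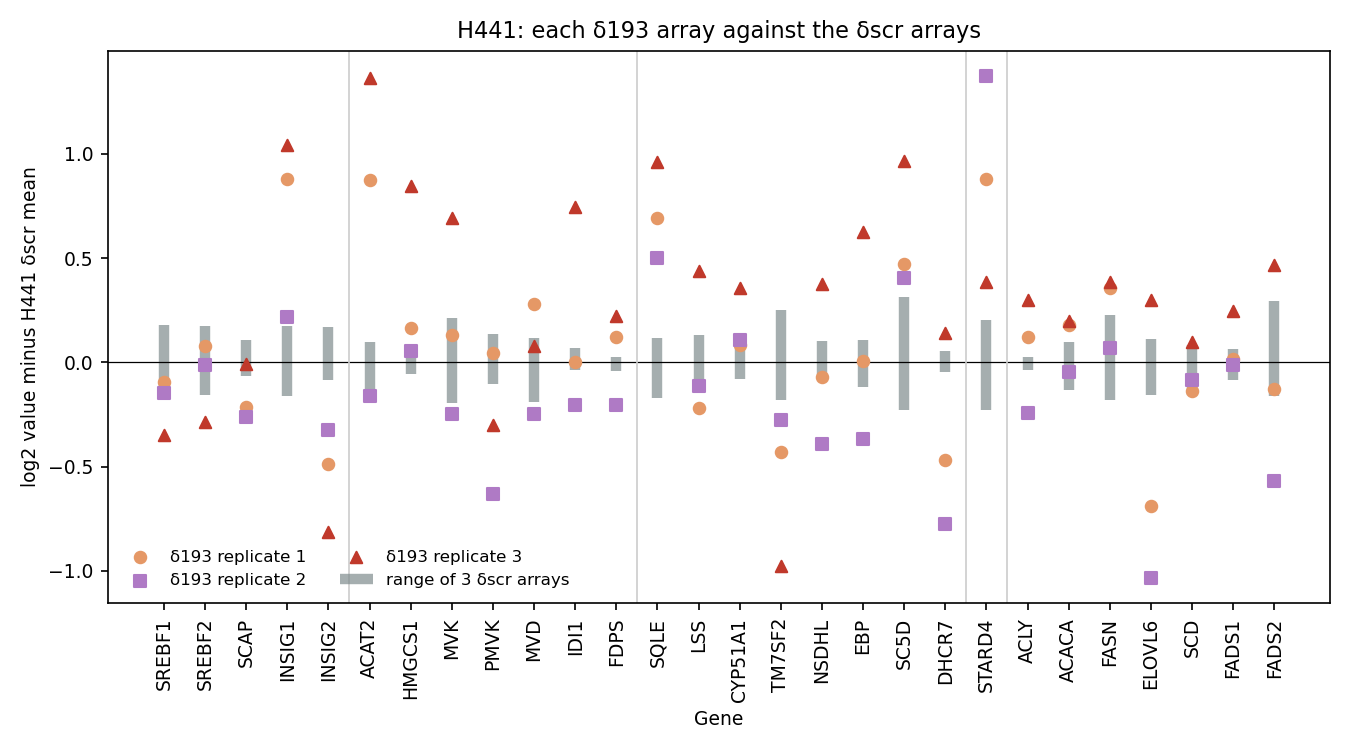
Log2 value of each H441 δ193 array minus the mean of the 3 H441 δscr arrays (y axis), for the 28 members (x axis, grouped by role); grey bars span the 3 δscr arrays. Replicate 3 (triangles) is the highest δ193 array for 21 members and replicate 2 (squares) the lowest for 20, while all 3 lie above the δscr range for HMGCS1, SQLE, SC5D, INSIG1 and STARD4. Of all genes, 10.7% had all H441 δ193 arrays above all H441 δscr arrays.

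The responses themselves differed between lines for 11 of the 28 members (moderated F over the 4 lines, adjusted p under 0.05), against 14.1% of all genes. These were SQLE, INSIG1, SCD, FASN, SC5D, SREBF1, FADS1, CYP51A1, FDPS, TM7SF2 and INSIG2. With line weights 9 differed, against 16.7% of all genes, since CYP51A1 (adjusted p = 0.0714), TM7SF2 (0.0739) and INSIG2 (0.0792) were lost and HMGCS1 (0.0329) was gained. For SQLE the H441 response exceeded that of H2009 (difference of H2009 minus H441 -1.002, adjusted p = 0.000471), that of A549 (H441 minus A549 +0.91, adjusted p = 0.000916) and that of H460 (H441 minus H460 +1.07, adjusted p = 0.000459). The differences among the other 3 lines were within 0.17. SREBF1 responded more in H2009 than in H441 (+0.54, adjusted p = 0.0168; 0.0695 with line weights), A549 (+0.59, adjusted p = 0.0138) and H460 (+0.50, adjusted p = 0.0346). The SCD response was more negative in A549 than in H2009 (H2009 minus A549 +1.09, adjusted p = 0.000578), H441 (H441 minus A549 +0.88, adjusted p = 0.00184) and H460 (A549 minus H460 -0.61, adjusted p = 0.0416). These contrasts in pairs share groups, and each was adjusted over all genes.

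Between the K-ras classes, 5 members had a higher mean response in the dependent than in the independent lines and 1 a lower one, against 2.63% and 2.02% of all genes. They were INSIG1 (+1.01, adjusted p = 0.000178), SCD (+0.68, adjusted p = 0.00181), FASN (+0.57, adjusted p = 0.00285), SQLE (+0.49, adjusted p = 0.0151) and FADS1 (+0.35, adjusted p = 0.013) on the higher side and TM7SF2 (-0.55, adjusted p = 0.0367) on the lower, each value being the mean response of H2009 and H441 minus that of A549 and H460. INSIG1 was the member for which both dependent lines differed from both independent ones, by +1.10 (H2009 minus A549), +0.92 (H2009 minus H460), +1.10 (H441 minus A549) and +0.91 (H441 minus H460), with adjusted p-values of 0.00243, 0.00934, 0.00113 and 0.0114. H2009 and H441 differed from each other in the INSIG1 response by 0.00 (95% interval -0.42 to 0.43). For FASN 3 of those 4 contrasts passed, H441 minus H460 being +0.40, adjusted p = 0.143, and H441 minus A549 (+0.56, adjusted p = 0.0226) did not pass with line weights (0.0704). For SCD the contrasts with A549 passed, while H441 minus H460 was +0.26, adjusted p = 0.434 and H2009 minus H460 +0.47, adjusted p = 0.152, which passed with line weights (0.0403). For SQLE the contrasts with H441 passed, while H2009 minus A549 was -0.09, adjusted p = 0.893 and H2009 minus H460 +0.07, adjusted p = 0.927. There are 2 lines per class, so these p-values carry the spread between arrays and not that between lines of a class.

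Without PKCδ depletion the lines already differed in most of these genes. Over the 4 δscr groups, 25 of 28 members differed (moderated F, adjusted p under 0.05), against 73.7% of all genes, and MVK, LSS and EBP did not. By pairs of lines the called members numbered 18 for H2009 against H441 (49.3% of all genes), 15 for H2009 against A549 (41.4%), 15 for H2009 against H460 (35.5%), 21 for H441 against A549 (48.4%), 15 for H441 against H460 (45.4%) and 13 for A549 against H460 (38.9%). FADS2, the delta-6 desaturase, spanned the widest range, with a mean log2 value of 10.10 ± 0.24 in A549, 9.27 ± 0.05 in H2009, 7.14 ± 0.03 in H460 and 6.84 ± 0.25 in H441 (SD, n = 3 each), a 9.59-fold range. H460 and H441 did not differ by the test, and the other neighbours in that order did.

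SQLE was highest in H2009 (10.23 ± 0.02) and lowest in H441 (7.91 ± 0.15), with A549 at 9.55 ± 0.28 and H460 at 9.31 ± 0.01 (SD, n = 3 each), which did not differ from each other. In H441 δ193 cells, where it rose, SQLE averaged 8.63 ± 0.23, still below the δscr level of each other line. SC5D likewise was lowest in H441 (5.85 ± 0.28), against 7.53 ± 0.08 in H460, 7.61 ± 0.12 in H2009 and 8.01 ± 0.12 in A549 (SD, n = 3 each). H460 and H2009 were the neighbours that did not differ. SREBF1 was highest in H441 (8.63 ± 0.16), then H460 (7.81 ± 0.06), and did not differ between A549 (7.03 ± 0.13) and H2009 (6.99 ± 0.02; SD, n = 3 each). INSIG2 was highest in H441 (6.72 ± 0.15), then H2009 (5.91 ± 0.08), and did not differ between A549 (4.995 ± 0.16) and H460 (4.80 ± 0.13; SD, n = 3 each). FDPS was highest in H441 (8.97 ± 0.04) and lowest in A549 (7.45 ± 0.08), and did not differ between H2009 (8.23 ± 0.13) and H460 (8.11 ± 0.04; SD, n = 3 each).

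Counted over members, H441 was highest for 7 and lowest for 10, A549 highest for 8 and lowest for 7, H460 highest for 8 and lowest for 7, and H2009 highest for 5 and lowest for 4. Members called above all 3 other lines were PMVK, FDPS, INSIG2, SREBF1, SREBF2 and STARD4 in H441, MVD, TM7SF2, SC5D and FADS2 in A549, SQLE, CYP51A1 and ACAT2 in H2009, and ELOVL6 in H460. Members called below all 3 others were SQLE, SC5D, NSDHL and FADS1 in H441, FDPS and INSIG1 in A549, and TM7SF2 in H460. The matching shares of all genes were not computed, so these counts describe the list alone. By these calls H441 had the highest level of both SREBP genes. It had the lowest of 3 sterol enzymes, SQLE, SC5D and NSDHL, but the highest of PMVK and FDPS in the mevalonate arm. The δscr arrays enter both these levels and the responses above, so the 2 are not independent.

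**Figure D4:**
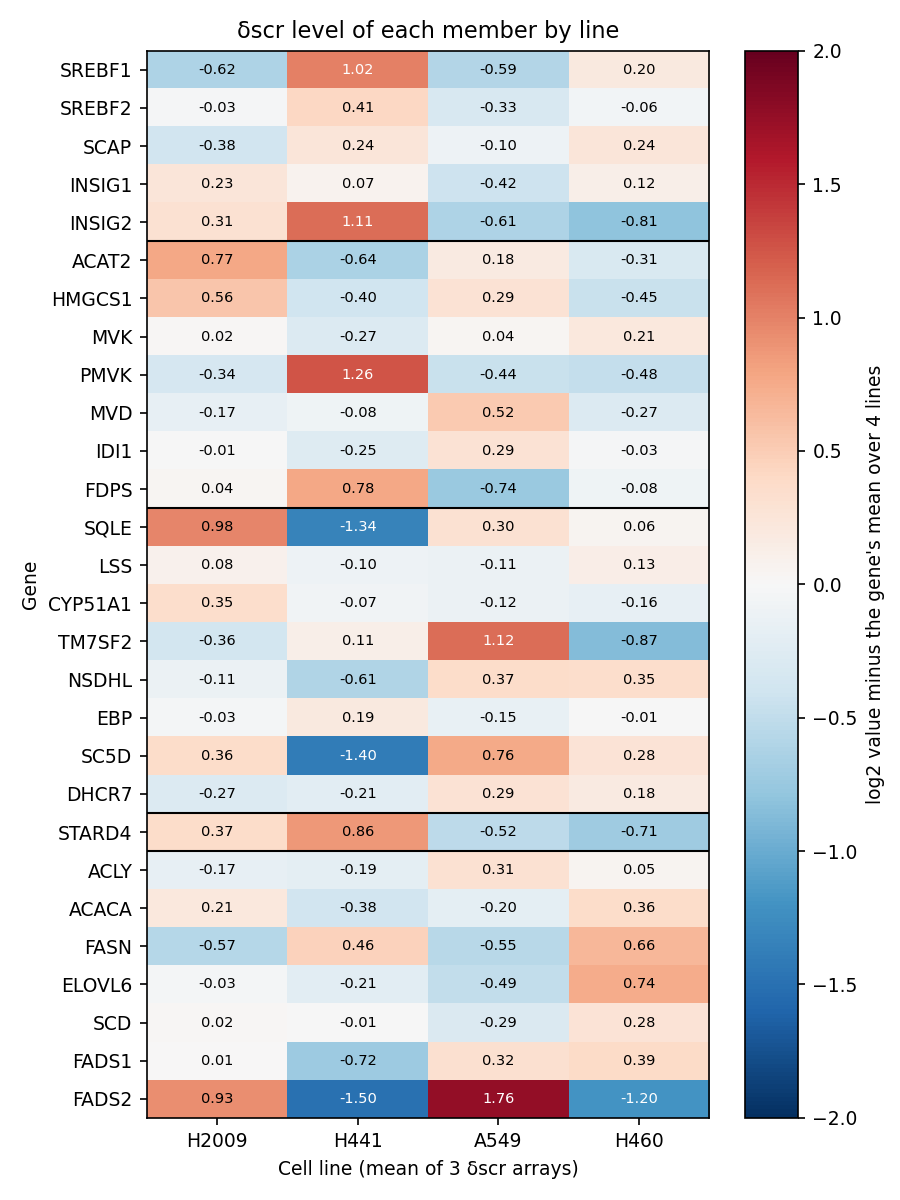
Mean log2 value of the 3 δscr arrays of each line minus the gene's mean over the 4 lines (colour and printed value), for the 28 members grouped by role (y axis) and the 4 lines (x axis). The H441 column runs from -1.50 for FADS2 to +1.26 for PMVK, and FADS2 in A549 is at +1.76.

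Around the members, how often other genes of the same routes passed the test varied with the list and the line. For comparison, A549 had 4.63% of all genes called in either direction and H460 5.45%, while H441 had 14.3% and H2009 4.91%. Of 6 further genes listed with the sterol enzymes (MSMO1, LBR, ERG28, TMEM97, AACS and the pseudogene HSD17B7P2), MSMO1, the C4 sterol oxidase, fell in A549 (-0.36, adjusted p = 0.0375; with the line alone adjusted p = 0.101) and H460 (-0.44, adjusted p = 0.00922), LBR, a reductase that also holds the nuclear envelope, rose in A549 (+0.43, adjusted p = 0.0138; with the line alone adjusted p = 0.0708), and none was called in H2009 or H441. None of 10 genes of the non-sterol isoprenoid branch was called in any line. Of 9 genes of SREBP processing and sterol sensing, MBTPS1, the protease that makes the first SREBP cut, fell in H441 (-0.91, adjusted p = 2.63e-08), a call that held with the line fitted alone (adjusted p = 0.00657). ERLIN2, which takes part in the turnover of HMG-CoA reductase, rose in A549 (+0.44, adjusted p = 0.000849) and fell in H460 (-0.41, adjusted p = 0.00133), and SEC24D, a coat protein of vesicles leaving the endoplasmic reticulum, rose in A549 (+0.59, adjusted p = 0.00803).

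Of 17 genes of sterol uptake, transport, storage and efflux, H2009 had 2 called higher and 1 lower, and H441 had 1 and 4. A549 had 1 and 0, and H460 had 2 and 2. Of all genes, 2.66% were called higher and 2.25% lower in H2009, and 7.09% and 7.22% in H441. The shares were 2.05% and 2.58% in A549, and 2.01% and 3.44% in H460. ABCA1, the cholesterol exporter, fell in H441 (-1.34, adjusted p = 1.06e-08; with the line alone adjusted p = 0.00139) and rose in H460 (+0.46, adjusted p = 0.00901). NPC1, which carries cholesterol out of lysosomes, rose in H441 (+0.81, adjusted p = 0.000339; with the line alone adjusted p = 0.0703) and H460 (+0.54, adjusted p = 0.0239), and NR1H3, the oxysterol receptor LXRα, fell in H460 (-0.58, adjusted p = 0.00131). Of 22 genes of fatty acid supply, elongation and activation, H2009 had 2 called higher and 0 lower, and H441 had 0 and 2. A549 had 1 and 4, and H460 had 1 and 2, beside the same shares of all genes. ACSL1, which activates long-chain fatty acids, rose in H2009 (+0.92, adjusted p = 2.78e-06) and fell in A549 (-0.49, adjusted p = 0.00354). MLXIPL, the carbohydrate-responsive factor ChREBP, rose in H2009 (+0.36, adjusted p = 0.0386) and A549 (+0.38, adjusted p = 0.0277; with the line alone adjusted p = 0.136) and fell in H460 (-0.79, adjusted p = 1.36e-05), and the elongase ELOVL4 fell in A549 (-0.59, adjusted p = 0.00292).

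Of 8 genes of glycerolipid synthesis and storage, DGAT2, which makes triglyceride, fell in 3 lines, H460 (-0.55, adjusted p = 0.000133), H2009 (-0.52, adjusted p = 0.000395) and H441 (-0.57, adjusted p = 4.76e-05), and differed by -0.05, adjusted p = 0.912 in A549. PLIN2, the coat of lipid droplets, rose in H460 (+0.52, adjusted p = 0.00499) as well as in H441 (+0.73, adjusted p = 7.28e-05). DGAT1, the other triglyceride-making enzyme, fell in H460 (-0.33, adjusted p = 0.0128), and AGPAT2, an acyltransferase earlier in that route, fell in A549 (-0.39, adjusted p = 0.0432; with the line alone adjusted p = 0.0987). In that list H2009 had 0 called higher and 1 lower, H441 had 1 and 1, A549 had 0 and 1, and H460 had 1 and 2. The shares of all genes called in each line, for comparison, are those given above.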

How the data were processed

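Total RNA from δ193 and δscr cells of the 4 lines was hybridized to Affymetrix Human Gene 1.0 ST arrays, 24 in all, 3 per group. The deposited values are log2 intensities that the authors obtained with Affymetrix Power Tools by Robust Multiarray Average (RMA), which corrects background, equalizes the distributions of the arrays and summarizes probes, and compresses differences near background. Versions of these programs were not given in the sources used here. Transcript clusters were named through GEO's platform annotation, with symbols updated by Entrez ID. Of 33252 clusters, 19460 carried 1 symbol, 1754 several and 12038 none, and those with several or none were left out. The cluster with the highest mean stood for each of 18417 genes, with no filter on low values.

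Groups followed the sample titles. limma 3.58.1 in R 4.3.3 fitted 8 group means to all arrays. Log2 differences were tested within lines, between lines (moderated F), between K-ras classes and between δscr groups, with Benjamini-Hochberg adjustment over all genes. The fit was tested on simulated arrays. Alternatives were lines fitted alone, 1 variance weight per line, the methods' test, other normalizations, filters, cluster rules and thresholds, a replicate block, and leaving out each array. All values were printed for SREBF1, SREBF2, INSIG1 and the 3 largest called changes of a line, and baseline values for the 6 members with the largest F. From each further list up to 3 called genes with the smallest adjusted p were named. The other members named, and AGPAT2, were chosen after their values were seen. The members, lists and tests were chosen with earlier results of these data known. Promoters and motif matches were read from RefSeq (GRCh38.p14). The number of arrays, 3 per group, limits the precision.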

Additional observations from a re-analysis of the deposited data

Results flagged for a closer look

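The members below were set apart because their knock-down responses differed between lines or classes by a test of that difference. Over the 4 lines, the adjusted p of the moderated F was 1.84e-04 for SQLE, 3.36e-04 for INSIG1, 6.01e-04 for SCD, 0.00442 for FASN, 0.00661 for SC5D and 0.0107 for SREBF1. It was 0.0255 for FADS1, 0.0298 for CYP51A1, 0.0423 for FDPS, 0.0444 for TM7SF2 and 0.046 for INSIG2.

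The mean response of H2009 and H441 minus that of A549 and H460 was +1.01 for INSIG1, +0.68 for SCD, +0.57 for FASN, +0.49 for SQLE, +0.35 for FADS1 and -0.55 for TM7SF2, on the log2 scale. INSIG1 was higher in 3 of 3 δ193 arrays than in every δscr array of H2009 and of H441, and lower in 3 of 3 in A549 and in H460. Without H441 δ193 replicate 3 the INSIG1 class difference was +0.92 (adjusted p = 1.61e-04).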

How the results depend on the processing

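None of the 12 member differences called within a line reversed its direction under any alternative. Most alternatives cannot change a line's log2 difference, because they alter only the spread, the test, the threshold, the genes kept or arrays of other lines. Only other normalizations, leaving out an array of that line and, for CYP51A1, the cluster rule can change it. The kept directions therefore speak for those alternatives alone. Of all 112 differences, 26 changed sign under at least 1 alternative, none of them called and each at most 0.192 in size on the log2 scale. Without H441 δ193 replicate 3, the H441 difference was -0.04 for FDPS, +0.03 for SREBF2 and -0.06 for MVK. FDPS in H460 kept its call under all except a fold of at least 1.5, and SQLE in H441, SCD in A549 and INSIG1 in H2009 under all except the methods' test with adjustment. In H2009 the 3 members called became 1 at a fold of at least 1.5, and 1 to 3 without each array. In H441 the 7 called became 1 with the line fitted alone, 3 with line weights, 3 by the methods' test unadjusted and 0 with adjustment (2 higher and 1 lower before it), and 6 to 9 without each array. The H441 calls were 5 higher and 4 lower with quantile normalization repeated, and 6 and 1 among genes above the median mean. INSIG1, SC5D, ACAT2 and TM7SF2 were the H441 calls lost by the methods' test unadjusted. In A549 the 1 called became 4 with line weights (SCD, DHCR7, FADS2 and INSIG1). It also became 4 by the methods' test unadjusted and with H441 left out of the fit (an alternative added after the data were seen). The A549 count was 2 with a trended and robust prior, with quantile normalization repeated and among genes above the median mean. It was 0 by the methods' test adjusted, and 1 to 4 without each array. Of all genes, 4.63% were called in A549 without line weights and 6.3% with them. In H460 the 1 called became 5 with the line alone and with line weights, and 4 by the methods' test unadjusted and 3 adjusted. The H460 count was 3 among genes above the median mean and with H441 left out, and 2 with a trended and robust prior. It was 0 at a fold of at least 1.5, and 1 to 3 without each array. Of all genes, 5.45% were called in H460 in the unweighted fit of all lines, 8.6% with the line alone and 9.23% with line weights. Shares of all genes under the methods' test unadjusted are given above, and those under the remaining alternatives are not given. The 6 members that differed between K-ras classes became 2 at a fold of at least 1.5 and 5 to 8 without each array. The 11 whose response differed between lines became 6 to 13, and the 25 that differed between δscr lines 24 to 27, without each array.

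Arrays that share a replicate number deviated together weakly at most (correlations of their deviations from the group means from -0.085 to 0.284). The highest were in H2009, at 0.284, 0.16 and 0.095. There replicate 3 was the lowest for 16 of 28 members in δscr cells and 16 in δ193 cells, against 36.4% and 33.8% of all genes. The replicate number was not taken as a pairing. With it as a replicate block, the members called stayed at 3 in H2009, 7 in H441, 1 in A549, 1 in H460 and 6 between classes, and 8 differed between lines in place of 11. No background level was measured, so dim members may be compressed. The causes of these shifts were not tested.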
